A study of Mus musculus with 8 samples.

Results

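The genes described here encode ubiquitin ligases, subunits of ligase complexes and deubiquitinases, and they were taken from 8 families by gene name: Rnf, Trim, Cul, Fbxl, Fbxo, Fbxw, Klhl and Usp, each followed by a number. The members were the YTHDF3-bound peaks whose deposited gene name began in this way, in 4 peak lists from mouse embryonic fibroblasts (MEFs). They were 1768 of the 87940 deposited peaks. With peaks of at least 2-fold IP/input enrichment and a p under 0.0001 kept, 1753 of 87096 peaks remained. Peaks that overlapped across lists were merged, which gave 818 member regions of 39979 in all. They named 168 genes. The name rule itself uses no measured value.

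Ubiquitin is joined to proteins by a chain of enzymes, and the ligase at the end of the chain picks the substrate. Most Rnf and Trim proteins are ligases with a RING domain, which brings the ubiquitin-loaded enzyme to the substrate. Cullins are scaffolds on which ligase complexes are built. F-box proteins, with leucine-rich repeats (Fbxl), WD40 repeats (Fbxw) or other domains (Fbxo), are the substrate receptors of Cul1 complexes, and many Klhl proteins, with a BTB and a Kelch domain, are those of Cul3 complexes. Usp proteins are proteases that take ubiquitin off again. Names can mislead, since Usp6nl, which the name rule includes, is a GTPase-activating protein of the Rab family and no deubiquitinase.

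YTHDF3 is a cytoplasmic reader of N6-methyladenosine (m6A) in mRNA. All groups were wild-type C57BL/6 MEFs prepared from day 13.5 embryos. The normal MEFs were untreated, and the starved MEFs were kept for 2 h in nutrient-deprived medium. In each condition, 2 replicates gave RNA immunoprecipitated with an antibody against mouse YTHDF3 (IP) and input RNA without antibody, 8 samples in all. The labels do not say whether replicates came from separate embryos or cultures, so the p-values below measure the spread between these samples, which may be technical.

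The lists held reads inside called peaks alone, so sequencing depth was not known. The 6531 regions called in all 4 lists held 6930058 to 12059939 IP reads and 1874978 to 3047643 input reads per list, and the IP reads were more in the starved lists. Of 12 fibroblast markers, 7 carried a kept peak (Col1a2, Col3a1, Fn1, Thy1, Pdgfra, Pdgfrb and Fbn1), with 6617 to 21766 input reads per list in all. None of the 4 epithelial, 3 leukocyte and 3 pluripotency markers did. Of the 3 endothelial markers Kdr had 0 to 5 input reads per list, and of the 3 neural markers Nes had 74 in starved replicate 1 and 0 in the others.

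Members made up 347 and 446 kept peaks in normal replicates 1 and 2 and 462 and 498 in starved replicates 1 and 2. This was 2.00%, 2.03%, 2.00% and 2.02% of the kept peaks, a share that hardly differed between lists. The mouse annotation holds 330 coding genes with these names, and 166 of them (50.3%) had a kept peak in at least 1 list. The share of genes with a peak was highest for Fbxl (12 of 18) and Klhl (24 of 36), followed by Cul (5 of 8) and Usp (32 of 56). It was 17 of 36 for Fbxo, 40 of 85 for Rnf, 30 of 68 for Trim and lowest for Fbxw (6 of 23). These shares go by deposited name, and 26 of the 168 named genes had no region on an exon of the gene itself. Over the whole series, 8612 gene names had a kept peak. The share of all annotated coding genes with a kept peak is not given here, so no enrichment is read from these shares. Of the 168 gene names, 127 were called in both conditions, 32 in starved MEFs alone and 9 in normal MEFs alone. The starved lists were also the larger ones over all genes, with 23088 and 24701 kept peaks against 17364 and 21943 in normal MEFs. The same split over all gene names is not given here, so no gain or loss of binding is read from these counts.

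**Figure D1:**
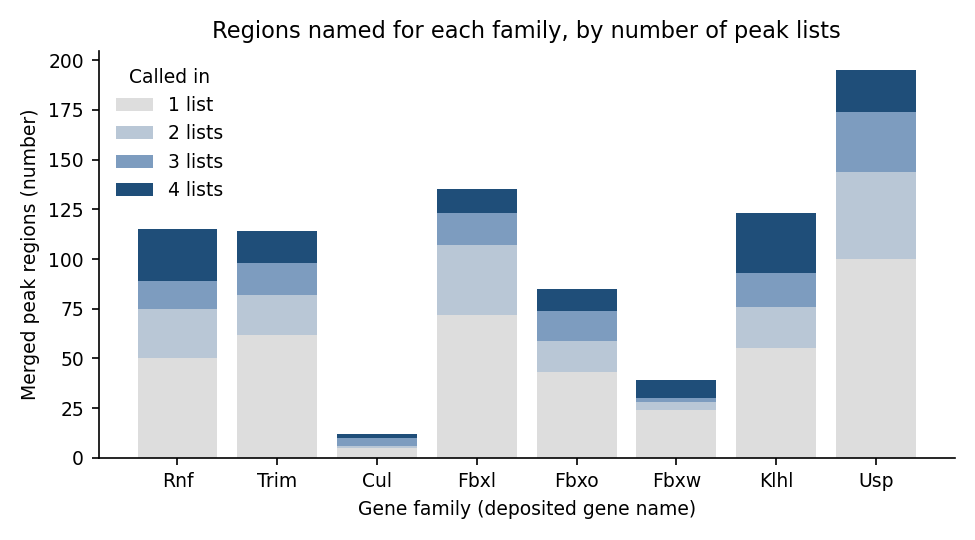
Merged peak regions of each family (vertical axis, number), coloured by how many of the 4 peak lists called them. Usp had the most regions (195) and Cul the fewest (12), and in every family the regions of a single list are the largest group.

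A region was called in all 4 lists for 127 of the 818 member regions (15.5%), beside 16.3% of all regions. The same held for 30 of 123 Klhl regions, 9 of 39 Fbxw regions and 26 of 115 Rnf regions, which were the highest shares. It held for 12 of 135 Fbxl regions and 21 of 195 Usp regions, which were the lowest. Of the Fbxl regions, 48 (35.6%) lay on an exon of the named gene, among them these 12, and 80 on exons of other coding genes alone. The share on an exon of the named gene was 77.9% for Usp regions and 63.2% for the 818. The plot of regions by number of lists shows that regions of a single list, 411 in all, were the largest group. The 127 regions named 57 genes, and all tests of starvation below used them.

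The deposited name is that of the nearest transcription start, and it was not always that of the bound transcript. Of the 127 regions, 103 (81.1%) overlapped an exon of the gene they were named for, beside 60.6% of all regions called in all 4 lists. A further 21 lay on exons of another coding gene alone, and 3 Klhl-named regions lay on neither. Regions named Klhl8 lay on Aff1 (4 regions), those named Trim8 on both Trim8 and its neighbour Sufu (4 regions on Sufu), and those named Klhl25 partly on Akap13 (3 regions). Over any list, 36 Fbxl22-named regions lay on Herc1. Herc1 is itself a very large ubiquitin ligase, outside the name rule. In the other direction, 83 regions called in all 4 lists lay on exons of 32 family genes and carried another gene's name. The Fbxw11 mRNA shows this: 7 regions named Fbxw11 and 6 with the name of its neighbour Smim23 covered 13 of its 14 exons.

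Short coding stretches of 24 bases show what the bound windows looked like. For each family, the gene is the one with the highest lowest-of-4 IP/input fold among those whose best 200 bp window held the letters GGAC, the core of the m6A consensus, in a coding exon on the strand of the gene (RefSeq sequence of GRCm38.p6, the assembly of mm10). The capitals mark the GGAC nearest to the window centre, and the Trim8 stretch holds another in lower case.
Rnf169, exon 1 of 6, chr7:99980017-99980040, minus strand: gcccgcgccgGGACgggggcgcgg
Trim8, exon 2 of 6, chr19:46512757-46512780, plus strand: agagagagcaGGACattgaggacc
Cul7, exon 22 of 26, chr17:46661926-46661949, plus strand: tggcccatgaGGACagtggcagag
Fbxl14, exon 1 of 1, chr6:119479909-119479932, plus strand: tcggctacttGGACgtccgagaca
Fbxo42, exon 2 of 10, chr4:141167762-141167785, plus strand: tcatggccgtGGACcaagaagaaa
Fbxw11, exon 7 of 14, chr11:32731350-32731373, plus strand: ctggcggtgtGGACgacacaactt
Klhl42, exon 3 of 3, chr6:147107730-147107753, plus strand: gccgacctctGGACgctgtttgag
Usp6nl, exon 14 of 14, chr2:6441105-6441128, plus strand: taccagaggaGGACcacagagctg

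GGAC in the window was about as common as over all regions. On the strand of the gene, 76 of 123 member windows of 200 bp (61.8%) held GGAC, beside 62.2% of 6045 windows over all regions called in all 4 lists. The longer form GGACT, which contains GGAC, was in 29.3% of the member windows and in 21.4% of all windows. A match is a string of letters and not a methylated site, and m6A was not measured in these lists.

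The bound regions lay mainly in coding sequence. On the main transcript, 78 of 108 member regions that could be placed (72.2%) had their centre in the coding sequence, 18 (16.7%) in the 3′UTR and 12 (11.1%) in the 5′UTR. Over all regions the shares were 70.5%, 19.2% and 10.3%. Of the 18 3′UTR regions, 10 lay on exons of other genes alone, and among the 88 placed regions on an exon of the named gene 8 (9.09%) were in the 3′UTR and 78.4% in the coding sequence. By family, 7 of 23 Rnf regions and 4 of 12 Trim regions were in a 3′UTR, of which 4 and 1 were those of neighbouring genes, and the difference between families was not tested. Within 200 nt of the stop codon lay 4 member regions (3.70%), beside 5.53% of all regions. Placed by the centre of the best 200 bp window instead, 8 of 92 member regions (8.70%) did, beside 8.95% of all regions. The single-exon genes Rnf26, Klhl9 and Fbxl14 each had 1 long region called in all 4 lists, of 3290, 2680 and 3640 bp. Predicted genes overlap the regions of Rnf26, Klhl9 and Rnf208, so their reads are uncertain in origin.

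Enrichment of the members was close to that of all regions. Their median IP/input fold, taken from the best peak of a region and the deposited normalised values, was 3.06 and 3.0 in normal replicates 1 and 2 and 2.80 and 3.02 in starved replicates 1 and 2. Over all 6531 regions it was 3.06 and 3.04 in normal and 2.88 and 3.23 in starved MEFs. The median log2 fold, averaged over the 4 lists, was highest in Fbxo (1.75), Rnf (1.71), Fbxw (1.71) and Fbxl (1.67) regions. It was lower in Klhl (1.57), Usp (1.48), Trim (1.45) and Cul (1.14) regions. Within a family it ranged widely, from 1.21 to 3.34 in Rnf regions and from 1.19 to 2.51 in Usp regions, so the families overlapped. All folds are above 2 because a peak below that was not kept.

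Among the RING ligases, Rnf144b had the highest fold of any family region. This gene encodes a ligase of the RING-between-RING type. Its 3′UTR region (chr13:47244301-47244960) had folds of 9.68 and 8.40 in normal and 10.1 and 12.9 in starved MEFs. These rested on few reads, 36 and 42 IP reads in normal and 71 and 116 in starved MEFs, against 2, 5, 2 and 6 input reads. Where the input held 3 reads or fewer, as in replicate 1 of both conditions here, it was set to 3, which makes the fold a minimum. Rnf26, a membrane ligase of the endoplasmic reticulum, had the most IP reads of any family region in every list. Scaled by TMM they came to 495 and 336 CPM per kb of covered sequence in normal and 435 and 339 in starved MEFs, so the replicates differed by more than the conditions. The region named Rnf208 (chr2:25244781-25249690) lay on exons of its neighbour Ndor1, with folds of 4.05 and 3.68 in normal and 3.80 and 3.64 in starved MEFs.

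Trim8 and Trim56 ranked highest in the Trim family by the lowest fold of the 4 lists, while Trim62, described with starvation, had the highest mean. Trim56 is a ligase of the innate immune response, and its region over the last coding exon (chr5:137111531-137115070) had folds of 3.25 and 2.90 in normal and 5.33 and 3.87 in starved MEFs. Trim8 had 7 regions by name, 3 on its own exons and 4 on Sufu. The Trim8 region over exon 1 (chr19:46500051-46503340) held 5696 and 5339 IP reads in normal and 9124 and 7802 in starved MEFs, with folds between 2.92 and 3.85.

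Of the 8 cullins, 5 had a kept peak by deposited name and only Cul7 had regions called in all 4 lists. Cul7 is the scaffold of a ligase complex with the F-box protein Fbxw8. Its region over exon 4 (chr17:46652291-46653420) had folds of 2.11 and 2.05 in normal and 2.23 and 2.49 in starved MEFs, close to the minimum of a kept peak. The region around exon 21 (chr17:46661121-46662360) had folds of 2.21 and 2.16 in normal and 2.37 and 2.04 in starved MEFs. Cul1, the scaffold on which the F-box proteins work, had 2 regions, each in a single list, and Cul3, the scaffold of the Klhl proteins, had no kept peak under its own name. Cul4a, Cul4b and Cul9 had 2, 1 and 1 regions by name, and none was called in all 4 lists. The region named Cul9 lay on an exon of Srf. The region named Cul4b lay outside that gene and on no exon of another coding gene.

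Among the F-box receptors, the highest folds of Fbxo10, Fbxl4 and Fbxl19 were in 5′UTR exons. Fbxo10, a receptor known for targeting BCL2, had folds of 8.07 and 4.0 in normal and 4.19 and 4.62 in starved MEFs in a region over exon 1 (chr4:45084271-45084730) with 4 to 13 input reads. Fbxl4, a mitochondrial F-box protein that restrains mitophagy, had folds of 5.64 and 6.00 in normal and 6.28 and 3.67 in starved MEFs over exon 2 (chr4:22375541-22375990), against 3 to 8 input reads. Fbxl19 had folds of 4.57 and 4.71 in normal and 4.38 and 3.65 in starved MEFs over exon 1 (chr7:127745921-127747360). The conditions overlapped in Fbxo10 and Fbxl4, and both starved values were below both normal values in Fbxl19. Over all reads of this Fbxl19 region, edgeR gave a log2 ratio change of 0.15 ± 0.26 (SE, n = 2 per condition) with an adjusted p of 0.999. Fbxw7, the receptor of MYC and cyclin E, had folds of 3.28 and 3.37 in normal and 3.10 and 4.04 in starved MEFs (chr3:84814461-84815860). Fbxl18 and Fbxo42 each had 4 regions called in all 4 lists, with folds between 2.15 and 7.16.

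Of the Cul3 receptors, Klhl20 and Klhl42 ranked highest by the lowest fold of the 4 lists, although single lists reached higher folds in other regions. Klhl20 takes part in ending autophagy by the turnover of ULK1 and other autophagy proteins. It had 4 regions over coding exons 3, 4, 6 and 7 of 12, and the one over exon 4 (chr1:161106501-161107080) had folds of 3.93 and 3.86 in normal and 5.00 and 3.72 in starved MEFs. Klhl42 had folds of 3.99, 3.63, 4.22 and 3.76 in normal replicates 1 and 2 and starved replicates 1 and 2 over its last exon (chr6:147107511-147112730), with no separation of the conditions. Klhl22, which acts on the nutrient sensor DEPDC5 upstream of mTORC1, had 4 regions with folds from 2.34 to 3.82. Klhl25 gave its name to the most regions of the family, 8, of which 3 lay on its own exons.

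Of the Usp family, Usp27x had the highest fold. Usp27x is an X-linked deubiquitinase whose coding sequence resembles that of Usp22. Its region (chrX:7373951-7376020) had folds of 8.87 and 3.56 in normal and 6.96 and 4.76 in starved MEFs, so replicate 1 was above replicate 2 in both. The Usp6nl region over the last exon (chr2:6440451-6443100) had folds of 6.85 and 3.75 in normal and 2.88 and 3.27 in starved MEFs. Usp31 had 7 regions, the most of the family, with folds from 2.02 to 5.89. Usp10, which removes ubiquitin from p53 and Beclin-1 complexes, had folds of 2.14 and 2.32 in normal and 2.43 and 2.66 in starved MEFs over exon 4 (chr8:119940911-119942500).

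**Figure D2:**
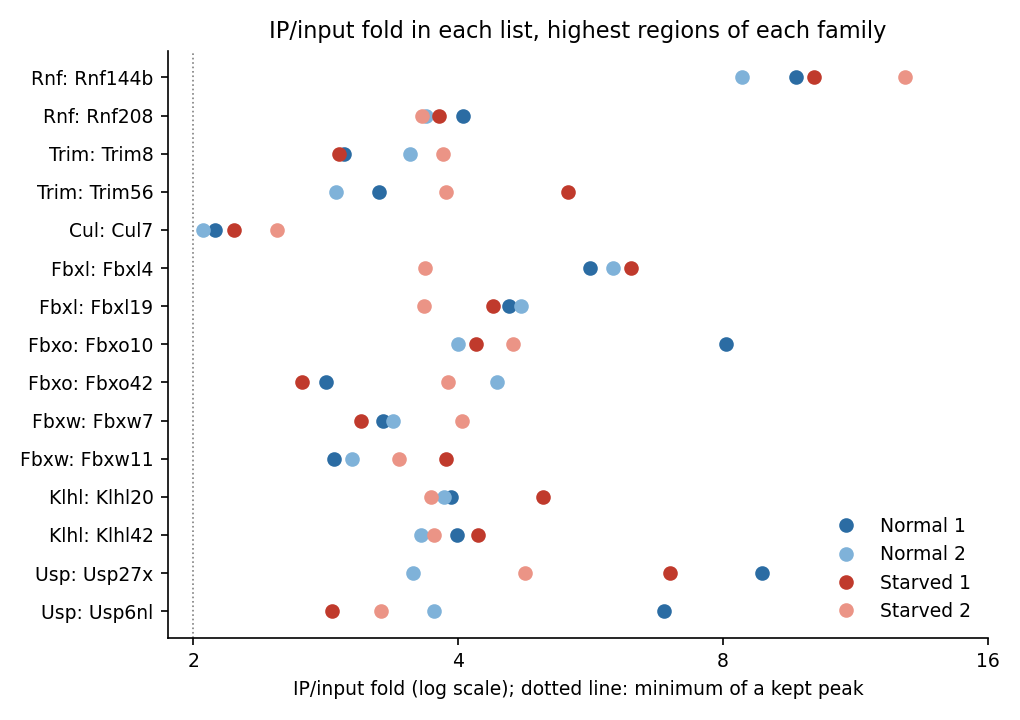
IP/input fold (horizontal axis, log scale) in each of the 4 peak lists for up to 2 genes per family, the highest by their lowest fold of the 4 lists, each list holding 20 or more IP reads. Each point is 1 list, blue for normal and red for starved MEFs; normal and starved ranges overlap in most rows, and Rnf144b stands to the right at 8.40 to 12.9.

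Genes with known roles in autophagy or nutrient signalling were counted by deposited name. Of 18 such genes among these families, 11 had a kept peak, beside 166 of 330 over the 8 families. Regions called in all 4 lists were found for 5, beside 57 genes over the 8 families: Klhl20, Klhl22, Fbxl20, Fbxw7 and Usp10. Exons of Rnf185, also 1 of the 18, held regions called in all 4 lists under the names of Limk2 and a RIKEN gene. Fbxl20, whose protein targets Vps34, had folds of 3.16 and 2.31 in normal and 2.29 and 2.21 in starved MEFs in its region over exon 1 (chr11:98149181-98149710). Regions in the Fbxl20 3′UTR that were named for Stac2 were also called in all 4 lists, with IP log2 changes of 0.66 and 0.12. Of 12 genes for histone ubiquitination, 5 had a kept peak by deposited name. By that name only Rnf40, part of the ligase for histone H2B, had a region in all 4 lists. Its folds were 2.68 and 2.26 in normal and 3.10 and 3.35 in starved MEFs (chr7:127588631-127590100). A region in the 3′UTR of Usp49, also of the 12, was called in all 4 lists under the name Tomm6os. It held 25 and 15 IP reads in normal and 35 and 35 in starved MEFs.

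Whether starvation changed YTHDF3 binding of these transcripts was asked first of the IP/input ratio. No member region passed edgeR's quasi-likelihood test at an adjusted p under 0.05 in either direction, beside 0.0153% of the 6531 regions tested that were higher and 0% that were lower. DESeq2 gave 0 in both directions too. At an unadjusted p under 0.05, 0 members were higher and 1 was lower, beside 1.26% and 1.55% of all regions. The median log2 change was -0.02 for the members and -0.02 for all regions. The 1 region was that of Fbxo10 over exon 3 (chr4:45058141-45059350), with a log2 change of -0.75 ± 0.26 (SE, n = 2 per condition) and an adjusted p of 0.999 in edgeR. Its folds were 5.22 and 3.92 in normal and 2.32 and 3.13 in starved MEFs, so the conditions did not overlap.

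A cutoff of 1.8-fold for the change of the IP/input fold in both replicates called 0 member regions higher and 1 lower. Over all regions it called 0.367% higher and 0.352% lower. The region was in the 3′UTR of Trim62 (chr4:128909091-128910860), a ligase of the Trim family. Its fold was 7.42 and 6.30 in normal and 3.83 and 2.74 in starved MEFs, a log2 change of -0.95 and -1.20, and edgeR gave -0.65 ± 0.35 (SE, n = 2 per condition) with an adjusted p of 0.999. IP reads were 155, 151, 392 and 107 in normal replicates 1 and 2 and starved replicates 1 and 2, against 21, 34, 47 and 26 input reads. The scaled input was 9.2 and 12.0 per kb in normal and 20.7 and 26.9 in starved MEFs and the scaled IP 19.1 and 18.5 against 27.3 and 23.6, neither with an adjusted p under 0.05 in edgeR (0.561 and 0.625). With the reads of all its peaks summed, the call was lost.

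Smaller changes that both replicates shared were found in both directions. Over the 127 regions, 29 were higher in both replicates (22.8%, beside 27.3% of all regions) and 35 were lower in both (27.6%, beside 25.4%). By family the split was 11 higher and 6 lower for Klhl, 4 and 8 for Rnf, 3 and 8 for Usp, 5 and 3 for Trim, 5 and 0 for Fbxw, 0 and 6 for Fbxo, 0 and 4 for Fbxl and 1 and 0 for Cul. The 5 Fbxw regions were 4 of the single Fbxw11 mRNA and the Fbxw10-named region on Trim16, and no difference between families was tested. Among the 127 regions, Klhl20 had the largest shared increase, over exon 6 (chr1:161102811-161103230). Its folds were 5.07 and 2.52 in normal and 8.57 and 4.27 in starved MEFs. Each replicate of this Klhl20 region changed by 0.76 on the log2 scale, but input reads were only 7, 31, 3 and 15. For its ratio edgeR gave 0.66 ± 0.55 (SE, n = 2 per condition) with an adjusted p of 0.999. A larger increase, on Usp31 under another gene's name, is described below. A Klhl25 region (chr7:75848291-75848710) changed by 0.49 and 1.04, and an Fbxw11 region over exon 4 (chr11:32711551-32712220) by 0.43 and 0.45. Among decreases after Trim62 came the region named Klhl40 or Zfp651, on the 3′UTR of its neighbour Zfp651, with -0.52 and -0.59 (chr9:121767091-121769770), where edgeR gave a ratio change of -0.14 ± 0.20 (SE, n = 2 per condition) over all its reads. Fbxo34 followed with -0.42 and -1.16 over coding exon 1 (chr14:47472491-47473070).

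**Figure D3:**
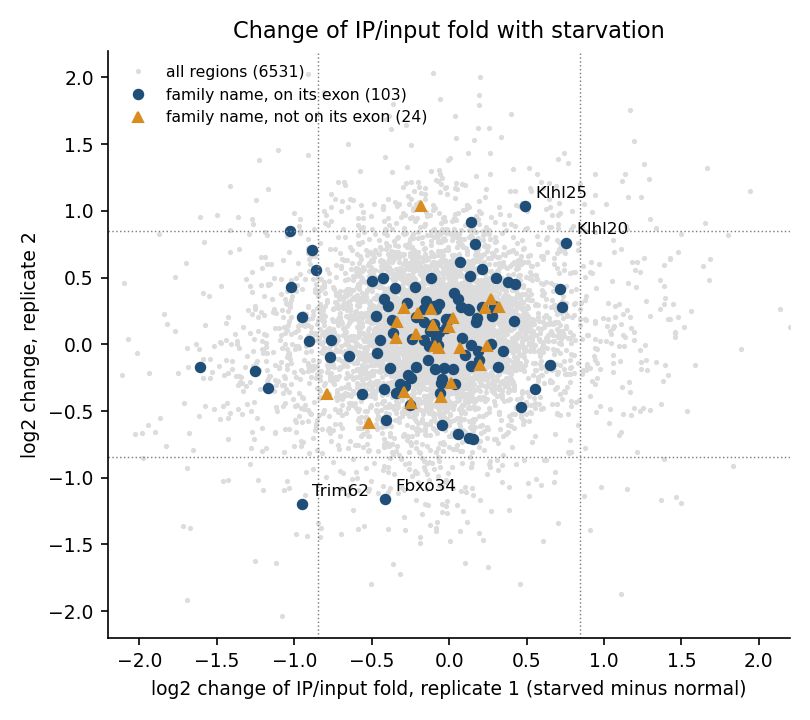
Log2 change of the IP/input fold with starvation in replicate 1 (horizontal) and replicate 2 (vertical) for each region called in all 4 lists, with family regions in colour and dotted lines at 1.8-fold. Family regions lie within the cloud of all regions, and of them only Trim62 is past the lines in the same direction in both replicates; 10 other regions and 0 family regions fall outside the axes.

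IP and input reads were then compared each on their own, per base covered. For IP reads, no member passed edgeR at an adjusted p under 0.05, beside 0.0919% of all regions that were higher and 0.75% that were lower. DESeq2 called 2 members lower, the Trim16 region described next and 1 of Usp31, and 0 higher. At an unadjusted p under 0.05, 0 members were higher (2.8% of all regions) and 9 were lower (7.09%, beside 7.06%). For input reads, 0 members were higher (0.23% of all regions) and 1 was lower (0.787%, beside 0.995%). In the input, 3 members were higher and 5 lower at an unadjusted p under 0.05 (2.83% and 5.21% of all regions), and DESeq2 called 0 higher and 1 lower. The median log2 change was -0.14 for IP and -0.15 for input over the members, and -0.10 and -0.08 over all regions. In scaled reads, both starved lists lay above both normal lists in 11 member regions for IP and 15 for input (8.66% and 11.8%, beside 12% and 13.5% of all regions). Both lay below in 39 for IP and 31 for input (30.7% and 24.4%, beside 27.4% and 24.5%).

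The 1 called region carried the name Fbxw10 and lay on the 3′UTR of its neighbour Trim16 (chr11:62840161-62842930), a ligase known for its part in the autophagy of damaged lysosomes. Its scaled input reads fell from 124 and 185 per kb in normal MEFs to 25.7 and 53.7 in starved MEFs. This was a log2 change of -1.90 ± 0.37 (SE, n = 2 per condition), with an adjusted p of 0.024 in edgeR. The scaled IP reads were 98.5 and 132 in normal and 30.5 and 42.9 in starved MEFs, a log2 change of -1.65 ± 0.27 with an adjusted p of 0.0524. The conditions did not overlap in either. Its IP/input folds were 2.66 and 2.06 in normal and 3.21 and 2.60 in starved MEFs, so the ratio did not fall with the reads. The length called was also shorter after starvation, 500 and 1340 bases against 1700 and 2460, and its part in the result was not tested. Without the length offset the input log2 change was -2.96 with an adjusted p of 0.495 in edgeR, a fit that called 0 of the 6531 regions. In the coding sequence of Trim16, 4 regions were called in 1 or 2 lists each, and they did not share a direction. The region chr11:62820211-62821120 was called in both starved lists alone, with 670 and 927 IP reads. Another was called in normal replicate 2 alone, and the other two in normal replicate 2 and 1 starved list, with scaled IP reads of 50.7 against 15.6 and of 48.7 against 29.5 per kb.

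**Figure D4:**
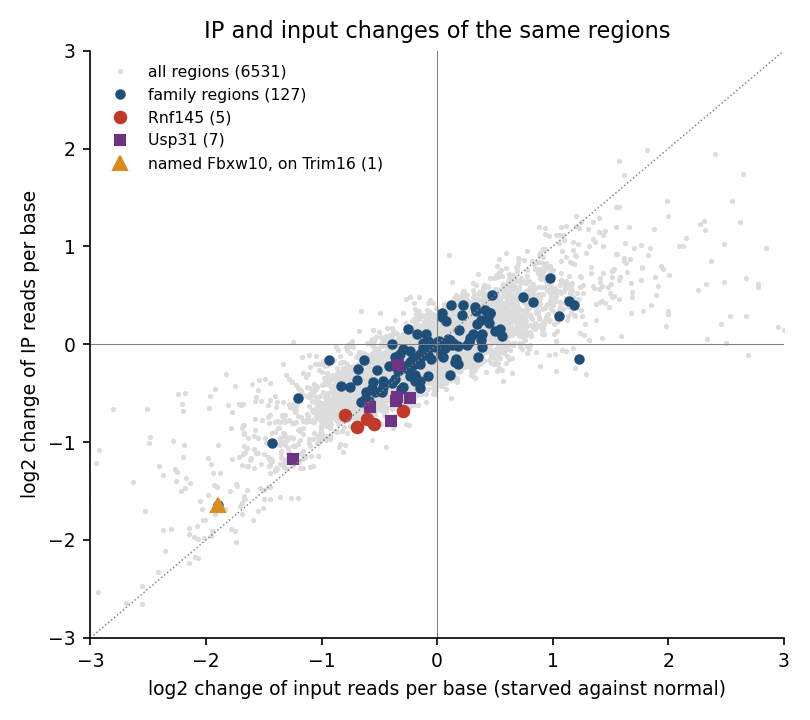
Log2 change of input reads per base (horizontal) and of IP reads per base (vertical) from normal to starved MEFs, from edgeR, for each region called in all 4 lists; the dotted line marks equal change. The 127 family regions follow the line with the other regions, with Rnf145, Usp31 and the region on Trim16 towards the lower left; 32 other regions and 0 family regions fall outside the axes.

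IP and input changes of the same region went together, with Pearson's r of 0.83 across the 127 member regions and 0.83 across all 6531. This is across regions, which share libraries and the covered length used for both, and it is a description without a test.

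Rnf145 had 5 regions called in all 4 lists, the most of the Rnf family together with Rnf169. It is described at length after its values were seen, and genes were not ranked by pattern. Its protein is a ligase of the endoplasmic reticulum that responds to sterols. All 5 regions named Rnf145, over exons 1, 2, 3, 5 and 6 of 11, had IP log2 changes between -0.85 and -0.69. A further 5 regions on its exons were named for a neighbouring RIKEN gene, and the 10 together touched 10 of the 11 exons. Over these 10 regions the scaled IP reads were 144 and 118 per kb in normal and 79.0 and 75.2 in starved MEFs. The scaled input reads were 122 and 104 in normal and 67.3 and 70.7 in starved MEFs. Both starved lists lay below both normal lists for IP in 10 of the 10 regions and for input in 8. Over all regions the shares were 27.4% for IP and 24.5% for input. None of the 10 passed, with adjusted p from 0.201 to 0.374 for IP in edgeR, and the ratio changed by -0.41 to 0.30 on the log2 scale. The regions belong to 1 mRNA and are not independent of each other. With a replicate block, 2 of the named regions had an adjusted p under 0.05 for IP.

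**Figure D5:**
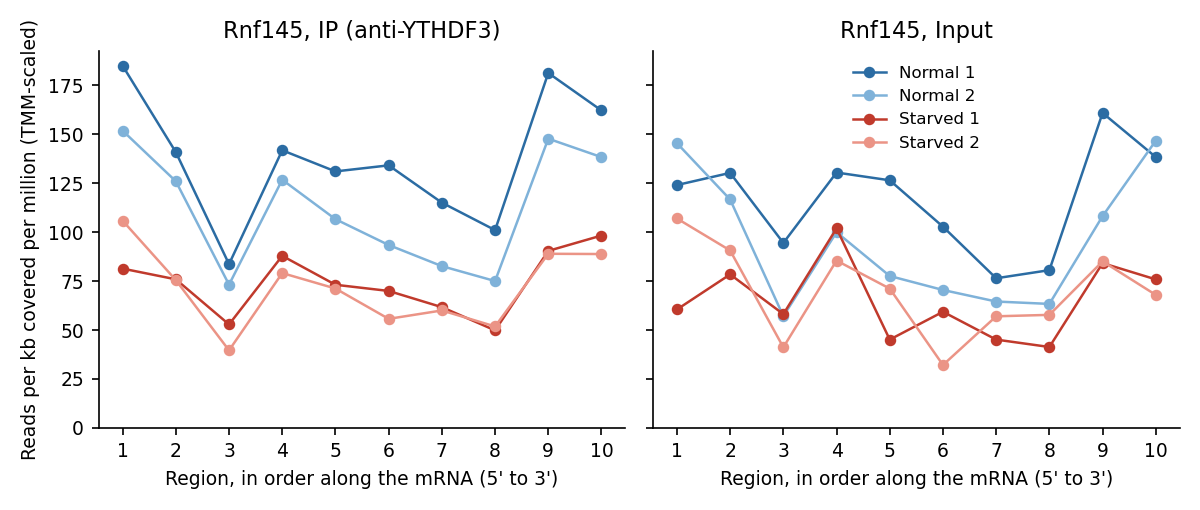
TMM-scaled CPM per kb of covered sequence of the 10 regions on Rnf145 exons, in order along the mRNA, for IP (left) and input (right); each line is 1 list. The 2 starved lines lie below the 2 normal lines at every region for IP and at 8 of 10 regions for input.

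Single regions of Usp31 and Klhl2, both chosen after their values were seen, had larger IP changes than any Rnf145 region. The scaled IP reads of the Usp31 region over exons 3 and 4 (chr7:121677921-121678560) were 76.8 and 60.0 per kb in normal and 25.6 and 34.4 in starved MEFs, a log2 change of -1.17 ± 0.28 (SE, n = 2 per condition) with an adjusted p of 0.180 in edgeR. Over the 9 regions on Usp31 exons, both starved lists lay below both normal lists in 7 for IP and in 5 for input. The shares over all regions were 27.4% and 24.5%. The largest change among the 9 was in a 3′UTR region named for a neighbouring RIKEN gene (chr7:121644281-121645590), also chosen after its values were seen. Its scaled input reads were 43.1 and 59.6 per kb in normal and 1.22 and 11.5 in starved MEFs, from 21, 176, 2 and 6 reads, with a log2 change of -3.55 and an adjusted p of 0.0379 in edgeR. Its scaled IP reads were 42.1 and 43.8 against 9.71 and 16.7, with a log2 change of -1.77 and an adjusted p of 0.0795 in edgeR, and its ratio changed by 1.93 on the log2 scale with an adjusted p of 0.999. Its best-peak fold changed by 2.35 and 1.09 on the log2 scale in replicates 1 and 2, past 1.8-fold in both. DESeq2 gave the region over exons 3 and 4 an adjusted p of 0.0283. The Klhl2 region over exon 3 (chr8:64822841-64823270) had an IP log2 change of -1.01 ± 0.28 and an adjusted p of 0.271 in edgeR. Fbxw11, with 13 regions on its exons, had IP log2 changes from -0.32 to 0.16. Both starved lists were below both normal lists in 10 of them for IP and in 5 for input, beside 27.4% and 24.5% of all regions. The 13 regions belong to 1 mRNA.

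Regions called in 1 condition alone were counted without a test. In both starved lists and neither normal list there were 42 member regions (5.13%), beside 4.7% of all regions. In both normal lists and neither starved list there were 9 (1.10%), beside 1.3%. Of the 42, the Usp family held 14, Fbxl 10 and Rnf 8, while 5 of the 9 were Klhl regions. Usp35 named 4 of the 14 (chosen after its values were seen), of which 3 lay on exons of its neighbour Gab2.

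Other parts of the ubiquitin system were counted by deposited name. Of the listed genes for activating and conjugating enzymes, other ligases, cullin partners, other deubiquitinases and ubiquitin itself, 16 had 32 regions called in all 4 lists. They included other ligases, such as Birc3, Birc6, Cbl, Cblb, Herc1, Herc2, Mdm4, Ubr4 and Znrf3, and 3 names beginning with Ube2 with 4 regions. The list of activating enzymes and that of ubiquitin genes had 0 regions. Vhl was the only cullin partner, and Otub2 and Otud7b the only other deubiquitinases. None of the 32 regions passed edgeR at an adjusted p under 0.05 for the ratio, IP or input, in either direction. Their median log2 changes were 0.07, -0.09 and -0.10, and their median folds 2.73 and 2.69 in normal and 2.57 and 3.02 in starved MEFs.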

How the data were processed

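Per the labels and methods, reads trimmed with Trimmomatic were aligned to mm10 with TopHat2 2.0.13 and HOMER named peaks by the nearest gene; the authors called peaks of each IP against input with diffReps. The deposited values are a signal, reads times 1 factor per library (factor 1, hence counts, in normal replicate 2), with p-values. Dividing by the factor gave whole reads for 100% of values, within rounding of the deposited decimals. An input of the same replicate was assumed. Peaks of at least 2-fold and a p under 0.0001 were merged at 1 bp overlap. For regions that every list called, the tests were those of edgeR 4.0.16 (quasi-likelihood, TMM, Benjamini-Hochberg over 6531 regions; log covered length as offset for IP and input), checked on simulated data, and with DESeq2 1.42.0. Read strand in counting was not given in the sources used here, so overlapping antisense genes cannot be told apart. Named were genes of fixed lists, the 2 highest folds and most regions per family, edgeR calls and the 3 largest shared changes. Regions described outside these rules were chosen after their values were seen. Among them are the Fbxo10 region over exon 3, the Rnf26 region and those marked in the text. Members and lists were chosen with earlier results of these data known. Exons came from GENCODE and sequence from RefSeq, both on GRCm38. Scripts ran in R 4.3.3 and Python 3.11.15 with pysam 0.24.0, scipy 1.17.1, pandas 2.3.3 and numpy 2.4.6. With 2 against 2 samples, no permutation test can reach 0.05; the smallest two-sided p is 0.333.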

Additional observations from a re-analysis of the deposited data

How the results depend on the processing

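No member was called higher for the ratio, IP or input, or lower for the ratio, under any alternative run. For IP reads, 4 members were lower with the replicate block (the Trim16 region, 2 of Rnf145 and 1 of Usp31), 2 with DESeq2, 1 with a minimum of 20 IP reads a list and 1 with total reads in place of TMM; leaving out 1 replicate gave 1 to 2. The labels share replicate numbers, but do not say that a number marks a shared culture or day, so the block is not a paired design (r of the replicate differences 0.27 across regions). Over all regions the block raised IP calls from 6 higher and 49 lower to 84 and 191, and input calls from 15 and 65 to 92 and 202. For IP, the minimum of 20 reads gave 8 and 62, and total reads gave 9 and 56. DESeq2 gave 37 and 131 for IP and 30 and 98 for input, leaving out 1 replicate gave 12 to 78 and 90 to 172 for IP and 9 to 67 and 54 to 112 for input, and without the length offset 0 regions were called. For input, 1 member was lower with the block and 1 with DESeq2, 0 with total reads or without the length offset, and 2 with names by exon overlap, where an Usp31 region was added; leaving out 1 replicate gave 0 (without starved replicate 1) to 1. The Trim16 region's IP adjusted p was 2.76e-06 to 0.0494 in the alternatives with a call. The Usp31 region over exons 3 and 4 had an IP adjusted p of 0.0283 with DESeq2, 0.0092 without normal replicate 2 and 0.033 without starved replicate 2. The 1.8-fold change gave 1 member higher with names by exon overlap (the Usp31 3′UTR region) and 1 at a cutoff of 1.5. Over all regions these settings gave 24 and 88 higher. The 1.8-fold change gave 0 members lower with IP/input of at least 4, with 50% reciprocal overlap or with summed reads. Over all regions these gave 4, 1 and 21 lower. With 1 replicate alone, 0 to 4 members were higher and 2 to 10 lower, beside 169 to 261 and 168 to 375 of all regions. Requiring 4-fold left 3 regions of 2 genes in all 4 lists (0.898% of 334 regions), with a median log2 fold of 2.61. Reciprocal overlap left 84 regions (1.99% of 4230), beside 127 of 6531 (1.94%) in the main setting. Names by exon overlap gave a median of 1.67 in place of 1.58. GGAC was in 39.0% of 100 bp windows, beside 40.2% over all regions. The Klhl20 ratio change turned to -0.08 without normal replicate 2. The cause of these changes was not tested. Folds with few input reads and reads outside called peaks limit all values.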
